A study of Drosophila melanogaster with 9 samples.

Results

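In cultured Drosophila cells, 366 nucleotides were crosslinked repeatedly to full-length Mei-P26 and never to its NHL domain or in control cells. They were chosen from 68832 crosslinked positions in 9 libraries. A position was kept when it held at least 1 cDNA in at least 2 of the 3 full-length libraries and none in the 3 NHL domain and 3 control libraries. Positions that the deposited tables give to mei-P26 itself or to Act5C were left out (47 and 2 positions that met the rule), because the bait plasmids encode mei-P26 and carry the Act5C promoter. The 366 positions are called FL-only recurrent positions here. Since the cDNA counts chose them, their counts with full-length Mei-P26 and their absence elsewhere are a description and carry no test.

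Crosslinks were mapped by iCLIP2, in which UV light joins RNA to protein in living cells and the bait is then immunoprecipitated. Reverse transcription tends to end at the joined nucleotide, so each distinct cDNA points to 1 position. The full-length group consisted of Schneider SL2 (S2) cells, an embryonic line with hemocyte-like features, which received 15 µg per dish of a plasmid for FLAG-tagged full-length Mei-P26 and were grown for 48 h. The NHL domain group received a plasmid for the FLAG-tagged NHL domain alone (amino acids 908 to 1206) in the same amount, also from the constitutive Act5C promoter of the pAC5.1 vector. Control cells were not transfected, according to their titles and individual labels, whereas the treatment protocol given for every sample describes bait variants with weakened RNA binding in this role. All groups were kept at 25 °C and had 3 biological replicates. The shared protocol gives 300 mJ/cm² of UV light, 10 U of RNase I and an anti-FLAG precipitation, and the study's methods state a lower UV dose. Both baits were thus expressed from plasmids, in a cell line rather than in the germline where Mei-P26 acts.

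Mei-P26 belongs to the TRIM-NHL family, whose members join an amino-terminal RING, B-box and coiled-coil part to a carboxy-terminal NHL domain. The NHL domain folds into a propeller that binds single-stranded RNA, while RING domains are known from ubiquitin ligases. In the fly ovary and testis Mei-P26 restricts growth and promotes differentiation of germline cells, and its relative Brat represses translation through elements in 3′ untranslated regions. The FL-only positions therefore ask where the complete protein left crosslinks that the isolated RNA-binding domain did not.

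NHL domains of this family recognise short single-stranded motifs, and the study searched its targets for U-rich ones. The following sequences are shown because they belong to genes that host FL-only positions. They are sequences that the study lists for these genes, near crosslinks of both baits or as RNA for a binding assay, and they were not read at the FL-only positions, whose own sequence was not analysed here. Capitals mark the longest run of U (written T in the list of sites).
Col4a1 (chromosome 2L, 4 FL-only positions, binding-assay RNA): gccaUUUUUUaucugcca
sty site a (chromosome 3L, 8 FL-only positions): TTTTTaga
sty site b (chromosome 3L): TTTTcga
sty site c (chromosome 3L): TTTTgat
RpL35 (chromosome X, 3 FL-only positions): TTTTTTTTaaa
CG10576 (chromosome 3L, 2 FL-only positions): TTTTTTTata
CG11357 (chromosome 3L, 3 FL-only positions): TTTTaaa
Df31 (chromosome 2L, 3 FL-only positions): TTTTaca
CG33129 (chromosome 2L, 1 FL-only position): TTTTgca
The U run was 6 nt long in the Col4a1 RNA, 8 nt in the RpL35 site, 7 nt in the CG10576 site and 4 or 5 nt in the others printed. Since the study searched for such runs, their presence is no result.

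The libraries differed widely in depth. Full-length replicates 1 to 3 held 14685, 1878 and 21831 cDNAs, NHL domain replicates 4321, 7947 and 40032, and control replicates 1252, 1160 and 849. Crosslinks on mei-P26, whose RNA the plasmids encode, numbered 506, 26 and 266 in the full-length libraries, 58, 90 and 424 in the NHL domain libraries and 3, 6 and 11 in the control libraries. Of 11 hemocyte markers, 7 had cDNAs, at 31.9 to 66.4 per 10000 cDNAs in the full-length, 18.9 to 35.0 in the NHL domain and 23.6 to 51.7 in the control libraries, while Hml, NimC1, He and Sr-CI were at 0. Of 8 germline markers 6 were at 0, bam and vas among them, and the 3 muscle markers were at 0. Of 4 neuronal markers 3 had cDNAs, at 0 to 1.83 per 10000 in the full-length, 0 to 4.63 in the NHL domain and 0 in the control libraries.

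The FL-only positions were low in count. They held 833 cDNAs in all, with 2 cDNAs at 282 positions, 3 at 67 and 4 at 17. At 285 positions no library held more than 1 cDNA, and the highest count of any library was 3, at 12 positions. Full-length replicates 1 and 3, the deepest of their group, supplied both libraries for 309 positions, replicates 2 and 3 for 39, replicates 1 and 2 for 13, and 5 positions were crosslinked in all 3 libraries. Just inside the rule stood the positions with 1 cDNA in each of a pair of libraries. Just outside stood 1394 positions with at least 2 cDNAs in a single full-length library and none elsewhere, the highest at 6 cDNAs, and 182 positions recurrent with full-length Mei-P26 that held exactly 1 cDNA in the other 6 libraries, 146 of them in NHL domain replicate 3.

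Recurrence with full-length Mei-P26 was more often shared than not. Of 1077 recurrent positions, 711 also held a cDNA in another group, 702 of them with the NHL domain and 166 in control cells. The FL-only positions had a median of 2 full-length cDNAs and a highest total of 4, against a median of 3 and a highest total of 108 at the shared positions. The authors' peak calls, positions with a false discovery rate below 0.05, covered 75 FL-only positions (20.5%) in at least 1 full-length library and 6 in at least 2. The shared recurrent positions were peaks more often, at 44.6% (317 positions), and all 32098 full-length positions less often, at 7.52%. As the calls use the same counts, these shares describe the sets.

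The 5 positions crosslinked in every full-length library lay in a small nuclear RNA, a pair of ribosomal protein mRNAs, a long non-coding RNA and a mitochondrial ribosomal RNA. The small nuclear RNA 7SK, which holds the elongation factor P-TEFb inactive, had 2, 1 and 1 cDNAs at position 7474827 of chromosome 3R (minus strand). RpL34b, a protein of the large ribosomal subunit, had 1, 1 and 2 cDNAs at 9400417 of chromosome 3R (minus strand). RpL21, of the same subunit, had 1, 1 and 1 cDNAs at 22247216 of chromosome 2L (minus strand). The long non-coding RNA lncRNA:CR40469 had 1, 1 and 1 cDNAs at 122628 of chromosome X (plus strand). The mitochondrial large ribosomal RNA mt:lrRNA had 1, 1 and 1 cDNAs at 13754 of the mitochondrial genome (minus strand). Each of these positions was empty in the NHL domain libraries, but their surroundings were not: within 20 nt on the same strand the 7SK position had 9 further full-length, 20 NHL domain and 0 control cDNAs. The same window around the RpL34b position held 5, 20 and 2, around RpL21 11, 26 and 1, around lncRNA:CR40469 11, 17 and 0, and around the mt:lrRNA position 7, 16 and 2.

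Of the 17 positions with 4 cDNAs, the highest total, those of 7SK and RpL34b were described above, and the following are further examples. CG33129 at 10964934 of chromosome 2L (minus strand), and mt:lrRNA at 13139 and 13272, were the only FL-only positions with at least 2 cDNAs in each of 2 libraries, namely 2 in replicate 1 and 2 in replicate 3. BCL7-like at 9358565 of chromosome X (plus strand) had 1, 0 and 3 cDNAs, with 1 further full-length cDNA and no NHL domain or control cDNA within 20 nt. CG13384 at 8388750 of chromosome 2L had 1, 0 and 3 cDNAs and stood in a similarly empty window, with 0 further full-length, 2 NHL domain and 0 control cDNAs. The opposite case was eEF1alpha1, the factor that brings aminoacyl-tRNA to the ribosome, at 11895489 of chromosome 2R (plus strand). Its position had 1, 0 and 3 cDNAs amid 40 further full-length, 48 NHL domain and 4 control cDNAs. Calr, encoding the endoplasmic reticulum chaperone calreticulin, had 1, 0 and 3 cDNAs at 9628991 of chromosome 3R, with 12, 8 and 1 cDNAs around it. Lamp1, a lysosomal membrane protein, had 0, 1 and 3 cDNAs at 21577046 of chromosome 2L, with 13, 10 and 0 around it. The poly(A)-binding protein gene pAbp had 3, 0 and 1 cDNAs at 18140886 of chromosome 2R, with 4, 2 and 0 around it. Whether a position with 4 cDNAs stood alone or inside a crowded stretch thus varied from gene to gene.

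The FL-only positions lay close to crosslinks of the NHL domain. Their median distance to the nearest NHL domain crosslink on the same strand was 3 nt, with 138 positions at 1 nt, 228 (62.3%) within 5 nt and 299 (81.7%) within 20 nt, and 11 beyond 1000 nt. The nearest other full-length crosslink was also at a median of 3 nt. The nearest control crosslink was at a median of 73 nt, and 123 positions (33.6%) had one within 20 nt. Without NHL domain replicate 3, the deepest library, the median to the NHL domain was 20.5 nt, so the comparison of distances between groups moves with their depth. Seen from the other bait, 946 positions recurrent with the NHL domain only had a full-length crosslink at a median of 3 nt. For 28030 positions seen in a single full-length library and no other group, the nearest NHL domain crosslink was at a median of 61 nt.

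**Figure D1:**
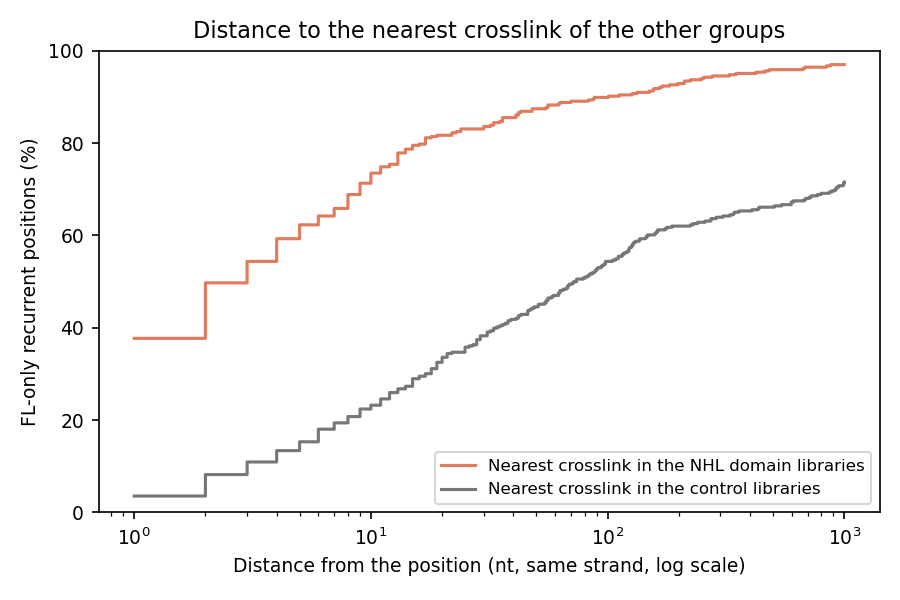
Cumulative share of the 366 FL-only recurrent positions (vertical axis, %) against the distance to the nearest crosslink on the same strand (horizontal axis, nt, log scale) in the NHL domain libraries (salmon) and the control libraries (grey). At 20 nt the NHL domain curve stands at 81.7% and the control curve at 33.6%.

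Counted in cDNAs within 20 nt, the crosslinking rates around the FL-only positions overlapped between the groups. At other positions within 20 nt, full-length libraries held 454, 612 and 700 cDNAs per 10000, NHL domain libraries 511, 462 and 672, and control libraries 607, 560 and 648. The full-length mean was 589 ± 125 (SD, n = 3), a description only. The NHL domain mean of 549 ± 110 and the control mean of 605 ± 43.8 (SD, n = 3 each) differed by -56.5 cDNAs per 10000, within the spread of the replicates (two-sided exact permutation test, p = 0.5, where 3 against 3 libraries cannot give less than 0.1). With a 50 nt window the difference was 64.2, of the opposite sign (exact permutation p = 0.6). Counting each position as 1 cDNA, NHL domain libraries had 549, 498 and 514 per 10000 crosslinked positions of the library, against 600, 556 and 641 in control libraries. All NHL domain libraries were then below all control libraries, by -78.6 on average (exact permutation p = 0.1, the smallest this design can give). The comparison leaves the difference undecided. The rule had dropped 702 recurrent positions held by the NHL domain and 166 held by control cells. This selection can shift the rates around the positions that remain, and its effect was not tested.

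The number of positions kept moved with single deep libraries. When the rule was applied without 1 library, the left-out library could be read at the positions chosen without it. NHL domain replicate 3 held 306 of 672 such positions (45.5%, exact Clopper-Pearson 95% interval 41.7 to 49.4), replicate 2 held 23 of 389 (5.91%) and replicate 1 held 10 of 376 (2.66%). Among the full-length libraries, replicate 3 held 5 of 18 positions (27.8%), replicate 1 held 5 of 44 (11.4%) and replicate 2 held 5 of 314 (1.59%), and these are the same 5 positions by construction. Control libraries held 2 of 368 (0.543%) in replicates 1 and 2 and 5 of 371 (1.35%) in replicate 3. Divided by depth, the share held per 1000 cDNAs of the left-out library was 0.96 ± 0.27% for full-length, 0.83 ± 0.27% for NHL domain and 0.83 ± 0.66% for control libraries (SD, n = 3 each), and the ranges of the groups overlapped. No test was run on these shares, since the sets of positions overlap.

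**Figure D2:**
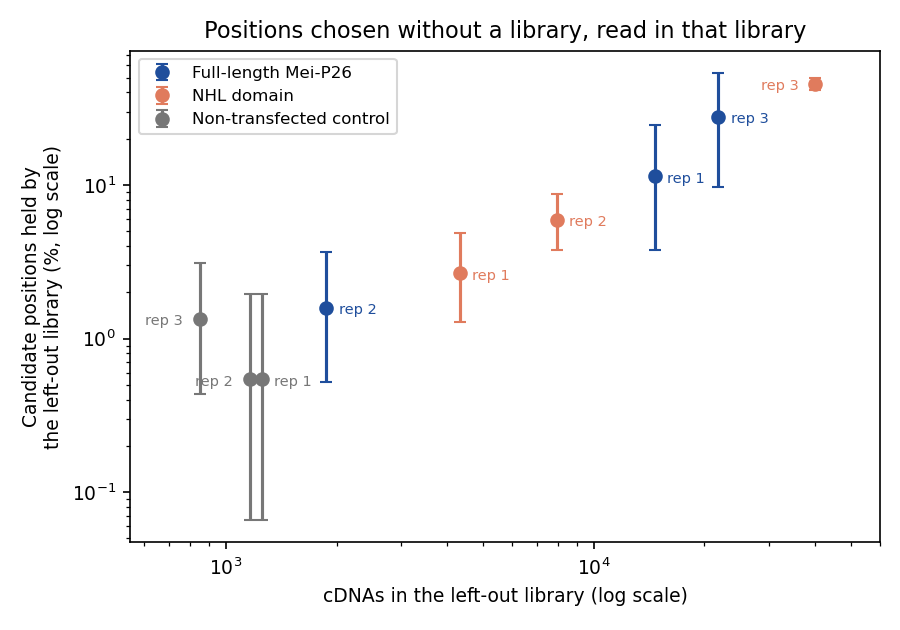
Share of candidate positions held by the library that the choice did not use (vertical axis, %, log scale) against the cDNAs of that library (horizontal axis, log scale), for full-length (blue), NHL domain (salmon) and control (grey) libraries, with exact 95% binomial intervals as bars. The share is highest, at 45.5%, in the deepest library, NHL domain replicate 3, and lowest, at 0.543%, in control replicates 1 and 2.

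A count of 0 over the 52300 NHL domain cDNAs allows up to 3 cDNAs, or 0.574 per 10000, and over the 3261 control cDNAs up to 9.2 per 10000. The 2 cDNAs of most FL-only positions came to 0.521 per 10000 of the 38394 full-length cDNAs, below both limits. The 3 cDNAs of 67 positions came to 0.781 and the 4 cDNAs of 17 positions to 1.04 per 10000, above the NHL domain limit but below the control limit. These limits cover the counting error of a count of 0 only. The rule imposed these counts of 0, and the full-length rates carry a counting error of their own. The order of rates and limits is therefore a description. At a single position, whether with 2, 3 or 4 cDNAs, absence of contact and too few cDNAs cannot be told apart.

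Nuclear protein-coding genes held 269 of the 366 FL-only positions (73.5%). Mitochondrial RNAs held 50 (13.7%), small nuclear and nucleolar RNAs 12 (3.28%), long non-coding RNAs 5 (1.37%) and nuclear tRNAs 2 (0.546%), and 28 (7.65%) lay outside annotated genes. The recurrent positions shared with another group were composed differently, with 40.2% protein-coding, 25.9% mitochondrial and 16.3% small nuclear and nucleolar RNA. Positions recurrent with the NHL domain only were 45.2% protein-coding, 14.1% mitochondrial and 29.4% small nuclear and nucleolar. All full-length positions, most of them seen a single time, were 85.4% protein-coding and 4.41% mitochondrial. The FL-only set thus lay between the recurrent and the unselected positions in its coding share. The rule drops a position as soon as any other library hits it, so these shares were left untested. With 1 value per host gene the coding share was 87.8%.

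**Figure D3:**
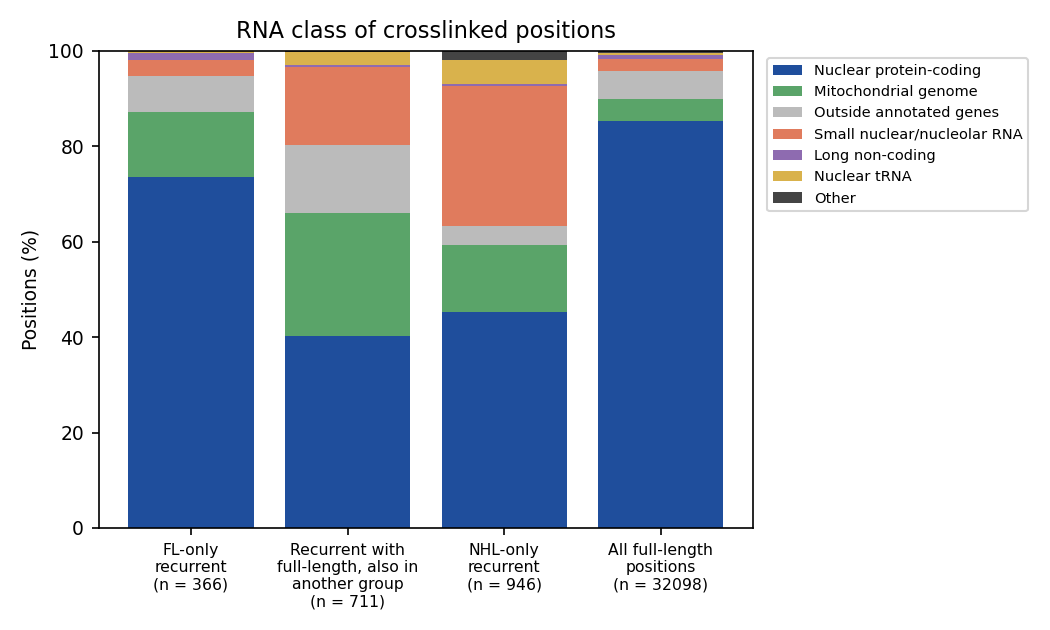
RNA class (stacked shares, vertical axis, % of positions) of FL-only recurrent positions, of positions recurrent with full-length Mei-P26 and present in another group, of positions recurrent with the NHL domain only and of all full-length positions. The protein-coding share is 73.5%, 40.2%, 45.2% and 85.4% from left to right, and the small nuclear and nucleolar share is 3.28% in the FL-only set.

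In all, 245 genes hosted FL-only positions, 193 of them with a single position, 34 with 2 and 18 with 3 or more. Those 18 genes held 92 positions. The host genes were well crosslinked to both baits, with a median of 25 full-length and 26 NHL domain cDNAs. Their median in control cells was 2 cDNAs, but the control libraries held 3261 cDNAs in all. The full-length libraries held 38394 and the NHL domain libraries 52300, so these medians are not comparable without depth. Control cDNAs occurred on 177 of the 245. NHL domain cDNAs occurred on 240 of the 245 (97.96%), against 82.6% of the 5481 genes with any full-length cDNA, whose median was 3 full-length cDNAs. The hosts together took 23.3, 30.8 and 25.98% of full-length cDNAs, 31.4, 30.2 and 29.3% of NHL domain cDNAs and 29.95, 28.8 and 27.8% of control cDNAs, so the groups overlapped. All but 5 of the host genes were thus also crosslinked to the NHL domain, at other nucleotides.

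The 5 host genes without any NHL domain or control cDNA were thinly covered. CG45782 had 4, 0 and 2 full-length cDNAs, px 2, 0 and 5, Rpn10 1, 0 and 4, CG8306 1, 0 and 2 and Fancd2 1, 0 and 1. Rpn10 is a ubiquitin receptor of the proteasome and Fancd2 a DNA crosslink repair protein. All 5 were named after their counts were seen, and none of them had a cDNA in full-length replicate 2.

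Among nuclear hosts, sty and pAbp had the most FL-only positions, 8 each. The gene sty encodes Sprouty, an inhibitor of receptor tyrosine kinase signalling. The positions spanned 1135 nt, from 3401186 to 3402320 of chromosome 3L (minus strand). They fell in groups: 3401186 (1, 0 and 2 cDNAs) and 3401194 (2, 0 and 1) lay 33 and 41 nt from the annotated 3′ end of the gene, and 3401240 (1, 0 and 1) and 3401244 (0, 1 and 1) lay 87 and 91 nt from it. A solitary position at 3401572 (1, 0 and 2) was 419 nt from the end, and 3402230 (0, 1 and 1), 3402313 (0, 1 and 1) and 3402320 (2, 0 and 1) were 1077 to 1167 nt away. NHL domain crosslinks lay 1 to 8 nt from 7 of them and 30 nt from the solitary one.

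On the whole sty gene, full-length libraries had 154, 10 and 117 cDNAs, NHL domain libraries 4, 11 and 100 and control libraries 2, 3 and 0. Per 10000 cDNAs this was 105, 53.2 and 53.6 with full-length Mei-P26, against 9.26, 13.8 and 25.0 with the NHL domain and 15.97, 25.9 and 0 in control cells. All full-length libraries were above all others. This gene-level pattern shares its counts with the rule and is a description.

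Genes of translation hosted many of the coding positions. Among 87 cytosolic ribosomal protein genes with a cDNA, 33 hosted 45 FL-only positions (12.3%), fewer than their 20.8% of shared recurrent and 32.1% of NHL-only recurrent positions but more than their 7.83% of all full-length positions. RpL34b had 3 positions within 49 nt, RpL35 had 3 within 224 nt, and RpS23 and RpS25, of the small subunit, had 2 each. RpL34b was crosslinked by 20, 6 and 22 full-length, 2, 14 and 74 NHL domain and 4, 0 and 3 control cDNAs. Translation factors were hosts in 5 of 41 genes, with 16 positions (4.37%). They held 4.22% of shared recurrent, 4.97% of NHL-only recurrent and 2.86% of all full-length positions. Of the 16 FL-only positions, pAbp held 8, and eEF1alpha1 held 5 within 86 nt of chromosome 2R. The helicase gene eIF4A and the initiation factor 3 subunit genes eIF3d1 and eIF3k had 1 each. On pAbp, full-length libraries had 120, 11 and 233 cDNAs, NHL domain libraries 102, 107 and 720 and control libraries 10, 13 and 13.

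Genes of protein folding hosted 17 positions (4.64%), in 9 of 19 listed genes, against 2.11% of shared recurrent, 1.06% of NHL-only recurrent and 1.58% of all full-length positions. Hsp83, the fly Hsp90, had 5 positions within 223 nt of chromosome 3L (3196763 to 3196985), all within 1 to 3 nt of an NHL domain crosslink and 74 to 296 nt from the 3′ end of the gene. Full-length libraries had 22, 4 and 48 cDNAs on Hsp83, NHL domain libraries 3, 16 and 84 and control libraries 5, 4 and 0. Calr had 4 positions, of which 3 lay 300 to 419 nt and the other 1462 nt from the 3′ end. Sec61beta, part of the channel through which proteins enter the endoplasmic reticulum, had 2, and Sec61alpha and the disulfide isomerase relative CaBP1 had 1 each.

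Extracellular matrix genes, typical products of hemocytes, hosted 8 positions in 4 of 10 listed genes (2.19%, against 0.985% of shared recurrent and 1.04% of all full-length positions). The collagen IV gene Col4a1 had 4, at 5036993, 5037003, 5037022 and 5037069 of chromosome 2L (plus strand), 210 to 286 nt from the 3′ end. Full-length libraries had 18, 1 and 76 cDNAs on Col4a1, NHL domain libraries 3, 4 and 59 and control libraries 2, 0 and 1. The adjacent collagen IV gene vkg had 2 positions, 60 and 67 nt from its 3′ end. Papilin (Ppn) and the laminin gene LanB2 had 1 each. Depth-adjusted rates on Col4a1 overlapped between the groups, at 12.3, 5.32 and 34.8 per 10000 with full-length Mei-P26, 6.94, 5.03 and 14.7 with the NHL domain and 15.97, 0 and 11.8 in control cells.

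Growth and signalling genes hosted 12 positions in 4 of 9 listed genes (3.28%, against 0.985% of shared recurrent and 1.29% of all full-length positions), 8 of them in sty and 4 in the other genes. The growth regulator Myc had 2, at 3389023 and 3389056 of chromosome X, each with 1, 0 and 1 cDNAs. The ETS factor gene pnt and the Toll ligand gene spz had 1 each. EcR, InR, aop, Tl and cact hosted none. Of 20 genes for RNA-binding proteins and mRNA repressors 3 were hosts, with 4 positions (1.09%). This was above their 0.563% of shared recurrent and below their 1.95% of all full-length positions. The hnRNP gene sqd had 2 positions, and the translational repressors brat and pum had 1 each. The cytoskeletal genes Act42A, Mlc-c, Msp300 and betaTub56D had 1 position each (1.09% for the 13 listed genes, against 0.963% of all full-length positions). None of 8 glycolytic genes and none of 22 ribosomal RNA genes hosted a position.

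**Figure D4:**
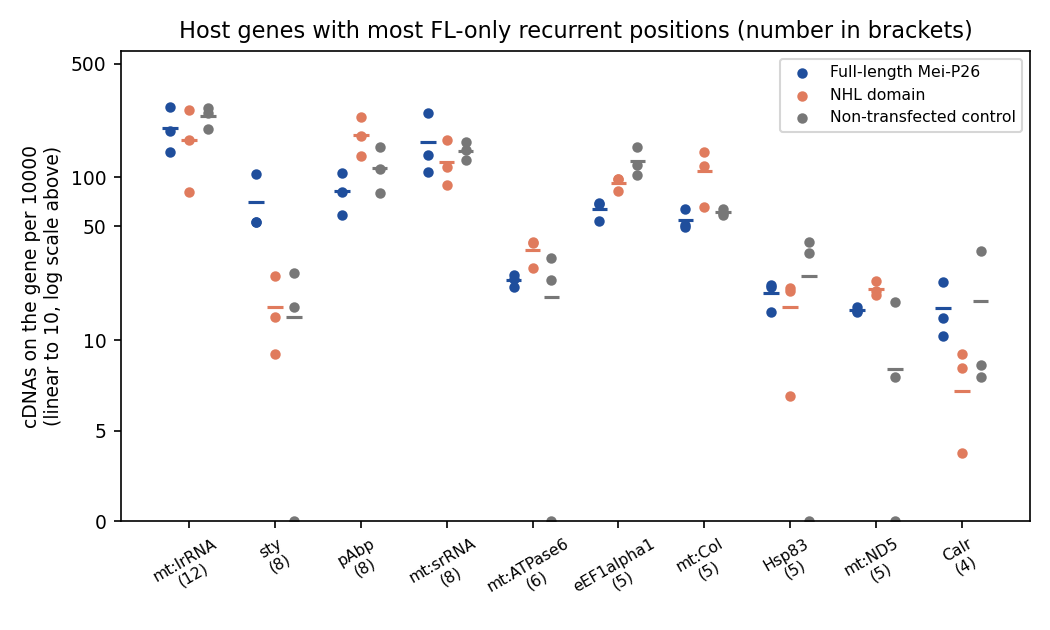
cDNAs per 10000 of the library (vertical axis, linear to 10 and log above) on the 10 host genes with most FL-only positions (number in brackets), for full-length (blue), NHL domain (salmon) and control (grey) libraries, with points for libraries and short lines for means of 3. For sty the full-length libraries (53.2 to 105) lie above all others, and for pAbp the full-length libraries (58.6 to 107) lie below all NHL domain libraries.

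Mitochondrial transcripts held 50 FL-only positions, 30 on the minus and 20 on the plus strand, 1 of them outside an annotated gene. The large ribosomal RNA mt:lrRNA had 12, the most of any gene, and the small ribosomal RNA mt:srRNA 8. Among coding transcripts, mt:ATPase6 had 6, mt:CoI and mt:ND5 5 each, mt:Cyt-b 4 and mt:ND4 3, which encode parts of ATP synthase and of respiratory complexes. On mt:lrRNA, full-length libraries had 143, 272 and 192 cDNAs per 10000, NHL domain libraries 169, 81.8 and 259 and control libraries 199.7, 267 and 247. The groups overlapped. Among small nuclear and nucleolar RNAs, 11 of 242 were hosts with 12 positions, 2 of them in 7SK. At the level of the whole gene, 7SK had 55.2, 202 and 55.0 cDNAs per 10000 with full-length Mei-P26, 153, 196 and 129 with the NHL domain and 199.7, 129 and 188 in control cells.

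FL-only positions in coding genes gathered near the 3′ end. Between the outermost crosslinked nucleotides of genes with at least 20 such positions, 173 of 207 FL-only positions (83.6%, exact 95% interval 77.8 to 88.3) fell in the last 20%. The shared recurrent positions stood at 82.4% (interval 77.3 to 86.8, overlapping), whereas NHL-only recurrent positions stood at 55.9% and all full-length positions at 63.0%. By library, the share over all positions was 61.3, 58.6 and 65.7% with full-length Mei-P26, 54.7, 50.8 and 57.5% with the NHL domain and 50.4, 51.1 and 54.2% in control cells. By this measure the lowest full-length library was above the highest NHL domain library, but the order depended on the measure. Within 500 nt of the annotated 3′ end lay 40.98, 46.8 and 51.7% of coding positions in full-length libraries, 45.4, 43.1 and 47.5% in NHL domain libraries and 41.8, 40.1 and 44.7% in control libraries, and there the baits overlapped. Positions from one gene share that gene. Counting 1 position per host gene, always the one nearest the 3′ end, gave 86.2%. This choice favours the last 20%, so the value does not show that the share is free of this dependence.

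Measured on the RefSeq gene spans, which 265 FL-only positions had, the median distance to the annotated 3′ end was 180 nt, and 187 positions (70.6%) lay within 500 nt. The shared recurrent positions lay at a median of 146 nt, NHL-only recurrent positions at 395 nt and all full-length positions at 598 nt. The last 10% of the span held 62.3% of FL-only positions, 57.7% of shared recurrent, 35.1% of NHL-only recurrent and 45.8% of all full-length positions. Exceptions were named above, with Myc at 2641 and 2674 nt and sqd at 2902 and 4751 nt from the 3′ end. Gene spans include introns, and a division into untranslated and coding parts was not analysed here.

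**Figure D5:**
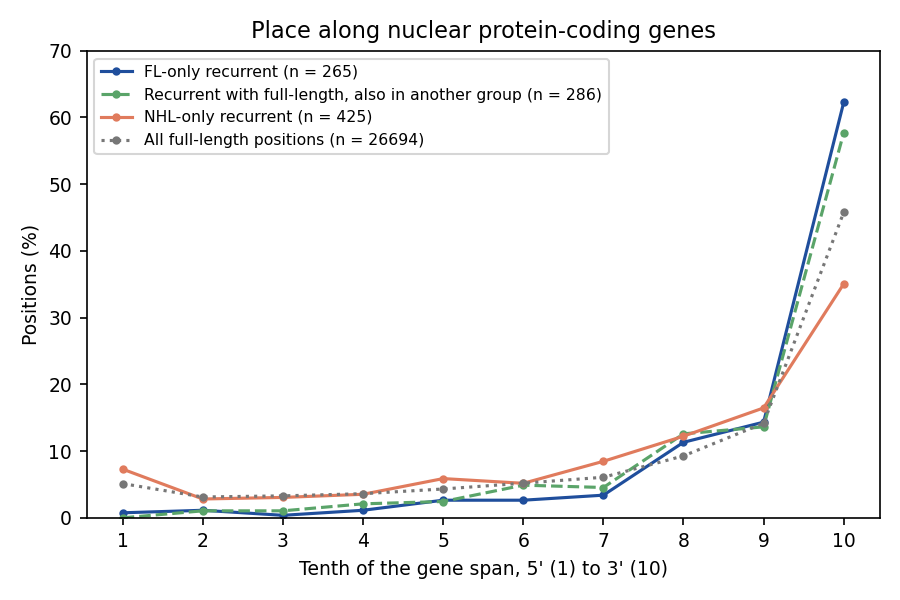
Share of coding positions (vertical axis, %) in each 10% of the gene span from the 5′ to the 3′ end (horizontal axis), for FL-only recurrent positions (blue), positions recurrent with full-length Mei-P26 and present in another group (green), NHL-only recurrent positions (salmon) and all full-length positions (grey, dotted). In the last bin FL-only positions reach 62.3%, shared recurrent positions 57.7%, all full-length positions 45.8% and NHL-only positions 35.1%.

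Among the 28 positions outside annotated genes, 7 formed a tight locus on chromosome 3R, from 2086615 to 2089123 (minus strand, 2509 nt). It lies within the span of Myo81F, an unconventional myosin gene, on the strand opposite to the gene. The whole locus had 39, 2 and 90 cDNAs in full-length libraries, against 5, 10 and 44 in NHL domain and 1, 0 and 1 in control libraries. Per 10000 cDNAs this was 26.6, 10.6 and 41.2 with full-length Mei-P26, 11.6, 12.6 and 10.99 with the NHL domain and 7.99, 0 and 11.8 in control cells. Full-length replicates 1 and 3 were above all other libraries and replicate 2 was not. The locus was bounded by its FL-only positions and its counts include theirs, so this order is a description. Of the other positions, 17 lay between RefSeq genes, 8 of those within 500 nt of one, for example 4 nt from eIF1 and 7 nt from kay.

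Some FL-only positions lay apart from any other group. No NHL domain or control cDNA was found within 20 nt of 66 positions, of which 61 (92.4%) were protein-coding, 3 outside genes and 1 mitochondrial. Nearly all were minimal, with 2 cDNAs at 58 of them, and 60 came from full-length replicates 1 and 3. The genes named next were picked from the 62 host genes of this group after their values were seen. No share of genes of their kind was computed. The group held positions in brat and pum, at 1106 and 170 nt from the nearest NHL domain crosslink, and in 3 further genes of translational control, NAT1, Paip2 and Lk6. NAT1 is related to the initiation factor eIF4G, Paip2 binds poly(A)-binding protein and Lk6 is a kinase of eIF4E. Full-length libraries had 28, 3 and 18 cDNAs on brat, 11, 1 and 12 on pum and 7, 1 and 9 on Paip2, against 1, 3 and 24, 0, 1 and 12, and 0, 0 and 4 in NHL domain libraries. Each of the 5 positions rests on 1 cDNA in replicate 1 and 1 in replicate 3.

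Gene-level counts were compared with edgeR in 1 fit of all libraries, which tested 73 genes, 40 of them hosts. For the NHL domain against control, 0 of 73 genes (0%) passed an adjusted p of 0.05, and 0 of 40 hosts. The rule did not use this contrast as a difference. It did drop positions held by either group, 702 shared with the NHL domain and 166 with control cells. The values of hosts are thus not free of the rule. At an unadjusted p below 0.05 there were 12 genes, 6 of them hosts, and DESeq2 also called 0. Among hosts the smallest p-values were those of snRNA:LU and of FASN2, which lie at overlapping positions so that their cDNAs are largely shared. Their log2 changes of 2.14 (SE 0.66) and 2.00 (SE 0.65) both missed the threshold (edgeR adjusted p = 0.056). For sty the change was 0.19 (SE 0.82) on the log2 scale (edgeR adjusted p = 0.95). The median log2 change was 0.22 over all tested genes and -0.06 over hosts.

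For full-length against NHL domain, a contrast the rule used, edgeR called 28 of 73 genes (38.4%) and 11 of 40 hosts. Higher calls were 15.1% of all genes and 7 hosts, and lower calls 23.3% of all genes and 4 hosts. Without the filter on low counts, 0 hosts were called higher and 4 lower. The 7 of the filtered fit were sty (log2 change 2.90), Myc (2.29), Df31 (2.21, a chromatin protein), lncRNA:CR44999 (2.02), Ten-m (1.83, a teneurin), Vha16-1 (1.64, a proton pump subunit) and sqd (1.33). The lower hosts included snRNA:LU (-2.10), FASN2 (-1.90) and dom (-1.39, a chromatin remodeler). These hosts are named because they were called, and since the rule used this contrast the values are a description that supports nothing. The calls of snRNA:LU and FASN2 were lost without NHL domain replicate 2. The gene dom kept its call in 4 of 9 fits, sqd in 3 of 9 and Vha16-1 in 3 of 5. An FL-only position of dom was also given to the nucleolar RNA snoRNA:Psi28S-3316b, so the cDNAs there count for both genes. The values depend on the scaling. With total cDNAs in place of TMM, the median over all genes moved by -0.88. The hosts called were then 1 higher, sty at 2.05, and 7 lower, beside 26 called genes of 73. Against control, edgeR called 5 genes (6.85%, with 4.11% higher and 2.74% lower) and 1 host, the higher sty (log2 change 3.10), again as a description. With total cDNAs its log2 change was 2.25 and it was not called, nor was it called without control replicate 3. Both full-length contrasts share the full-length libraries. In both, the genes called higher included mei-P26 and Act5C, whose positions the rule had left out. Their log2 changes were 1.72 and 1.33 against the NHL domain, and 2.57 and 8.47 against control. The shares of higher calls over all genes thus include these plasmid-related genes.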

How the data were processed

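The deposited values are counts of distinct cDNAs per crosslinked position in 9 iCLIP2 libraries, not normalized. To make them, the authors split reads by barcode, collapsed PCR duplicates, mapped every replicate to the Ensembl release 98 fly genome (STAR 2.7.3a in the submitters' processing notes) and ran iCount (version not given in the sources used). The authors' score tables add a gene and a corrected p-value, given as false discovery rate. Deposited clusters were not used.

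Positions were matched by chromosome, nucleotide (counted from 1) and strand. Members and gene lists were chosen with earlier results of these data known. RNA classes and gene spans came from RefSeq (Release 6), matched by symbol for all 245 host genes, and of its coordinates only distances are printed. Neither genome sequence nor transcript models were used, so the planned shares of untranslated regions and motifs were replaced by the place along the gene. Rates are cDNAs per 10000 of the library. Gene counts were fitted in edgeR 4.0.16 (R 4.3.3, 9 libraries, 3 groups, TMM, default filter, Benjamini-Hochberg, threshold 0.05), tested on simulated data, with DESeq2 1.42.0 as an alternative. NHL domain and control libraries were compared by exact permutation tests. Intervals are Clopper-Pearson and cover counting error only. Other steps used Python 3.11.15 (SciPy 1.17.1, pandas 2.3.3, NumPy 2.4.6), and plots matplotlib 3.10.9.

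Named genes were those with a position in all 3 full-length libraries, the 10 positions with most cDNAs, the 10 genes with most positions and up to 4 hosts of each list. Genes named outside this rule are marked in the text as chosen after their values or calls were seen. A further called host gene is not reported here. Replicates are biological according to the series' design. Alternatives were each library left out, stricter absence, other windows, scalings, filters and a replicate block.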

Additional observations from a re-analysis of the deposited data

How the results depend on the processing

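The number of FL-only positions depended on single deep libraries. It ranged from 18 (without full-length replicate 3) to 672 (without NHL domain replicate 3) when 1 library was left out, and without full-length replicate 1 it was 44. It was 3 with at least 2 cDNAs in each of 2 libraries, 132 when absence was required within 5 nt, 66 within 20 nt and 354 when neighbours within 5 nt were joined. Without full-length replicate 2 and NHL domain replicate 3 together, a choice made after seeing the data, it was 580. The protein-coding share ranged from 54.5 to 76.1% over the left-out full-length libraries, and was 89.4% with absence within 5 nt and 87.8% by host gene. The mitochondrial share ranged from 11.1 to 33.3%. The share in the last 20% of the gene ranged from 77.8 to 95.2%, and was 77.5% with absence within 5 nt and 76.6% on RefSeq spans, chosen after seeing the data.

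The difference between NHL domain and control around the positions ranged from -118 to -13.1 cDNAs per 10000 over the left-out libraries and reversed to 64.2 with a 50 nt window. The cause was not tested. Called host genes ranged from 0 to 5 for NHL domain against control, 6 to 25 for full-length against NHL domain and 0 to 4 for full-length against control over the left-out libraries, with different numbers of genes tested. The highest counts of the first 2 contrasts came without full-length replicate 2, at 5 of 82 hosts beside 13 of 178 genes and 25 of 82 beside 56 of 178. For full-length against control, 4 of 35 hosts and 7 of 62 genes were called without NHL domain replicate 2. Without the filter on low counts, called hosts were 5 of 245 for NHL domain against control, beside 15 of 6780 genes. For full-length against NHL domain they were 4 of 245, with 0 higher and 4 lower, beside 18 of 6780 genes. There sty was no longer called. With total cDNAs they were 0 of 40 for full-length against control, beside 3 of 73 genes. With the replicate number as a block they were 0, 10 and 1 of 40, beside 0, 22 and 5 of 73 genes. Deviations of same-numbered libraries correlated at -0.39 to 0.29 over 73 genes, and those of other pairs at -0.34 to 0.39. Same-numbered libraries were thus not more alike than others. With control libraries of 849 to 1252 cDNAs, this cannot exclude that the numbers pair the samples. Alternatives for untranslated regions and motif windows were not run, since no genome was used. Control libraries of 849 to 1252 cDNAs limited every comparison with control cells.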
